A study of Mus musculus with 6 samples.

Results

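The 9 genes described here encode transcription factors that set up or shape the macrophage lineage: Spi1, Spic, Cebpa, Cebpb, Maf, Irf8, Irf4, Klf4 and Gata6. A gene was included when a probe set of the array named it and no other gene, which gave 1 probe set for each of the 9, out of 19938 genes measured in all. Starry-sky tumor-associated macrophages (SS-TAMs) were cut out by laser, after staining for CD68, from tumors of 1.44 cm2 that the human Burkitt's lymphoma line BL2 had formed in 3 female Balb/c SCID mice. Germinal center macrophages (GCMs), the tingible-body macrophages that clear dying B cells in normal lymphoid tissue, came from 3 female CSF1R EGFP transgenic Balb/c mice immunized with sheep red blood cells in 2 doses. All mice were 6 to 12 weeks old, 1000 cells were taken from each animal, and each animal gave 1 array. SCID mice lack mature T and B cells, whereas the immunized mice have them, so mutation, transgene, immunization, host lymphocytes and tissue differ together between the groups and cannot be told apart. The EGFP reporter is driven by the Csf1r promoter, and the GCM labels name the spleen in one field and lymph nodes in another.

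Macrophages arise under the control of a small set of DNA-binding proteins. PU.1 (Spi1), an ETS factor, opens the enhancers of myeloid genes, and C/EBPα (Cebpa) and C/EBPβ (Cebpb) bind many of the same enhancers in progenitors and in mature macrophages. IRF8 takes part in forming monocytes and dendritic cells, whereas Spi-C (Spic), c-Maf (Maf), KLF4, IRF4 and GATA6 are known for particular tissues or states, such as red pulp macrophages of the spleen for Spi-C and large peritoneal macrophages for GATA6. The study set SS-TAMs against GCMs as the normal counterpart of these tumor macrophages.

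Values are intensities on a linear scale, and the median intensity of an array lay between 6.1 and 6.5. Array profiles correlated at a median of 0.970 within SS-TAMs, 0.988 within GCMs and 0.920 between the groups, over probe sets that are not independent. Of 21 core macrophage markers, 15 rose in SS-TAMs on the deposited scale and none fell (13 of 19 without Cd68 and Csf1r, whose products or promoter marked the cells). Their summed intensity was 2868 to 3803 on SS-TAM arrays against 1190 to 1363 on GCM arrays. On the GCM arrays Adgre1 (F4/80), at 5.1, 4.9 and 5.1, was below the array medians, whereas Cd68, at 97.8, 47.8 and 71.5, was above them. T cell markers fell in 9 of 17 cases (sums of 204 to 248 against 1219 to 1635) and B cell markers in 2 of 19 cases (sums of 189 to 226 against 269 to 750), with all 19 B cell markers highest in GCM replicate 1 among the GCM arrays. Fewer cells of a type and less RNA per cell cannot be told apart in such captured material. The BL2 cells are human and the arrays are mouse arrays, so how far the B cell values include BL2 cells is not known. With 3 arrays a group, 0.1 is the smallest p that exact permutation allows, so calls rest on the fit across all genes with limma, at a Benjamini-Hochberg adjusted p under 0.05. In that fit 9.90% of all genes were called, 5.16% higher and 4.74% lower in SS-TAMs.

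Of the 9 factors, Spic and Klf4 rose in SS-TAMs on the deposited scale and none fell, although both turned to negative values once arrays were scaled to the core macrophage markers. The count of 2 of 9 stands beside 5.16% of all genes called higher. At an unadjusted p under 0.05, 5 of the 9 were higher (15.2% of all genes) and none was lower. The 3 SS-TAM arrays lay above the 3 GCM arrays for Spic, Cebpa, Maf and Klf4, and below them for none of the 9. Across all genes the groups did not overlap in 30.1% of cases, and in 18.5% with SS-TAMs higher. The median log2 fold change (SS-TAM minus GCM) was 0.29 over the 9 factors and 0.04 over all genes. The fold on the deposited scale was 1.91 for Cebpa, 1.65 for Spic and 1.59 for Maf, and no factor reached 2-fold, whereas all 9 were lower after the scaling to core markers. Set against the median of their own array, Spi1, Cebpa, Maf and Irf8 were above it on all 6 arrays, whereas Spic and Klf4 were above it on the 3 SS-TAM arrays only.

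**Figure D1:**
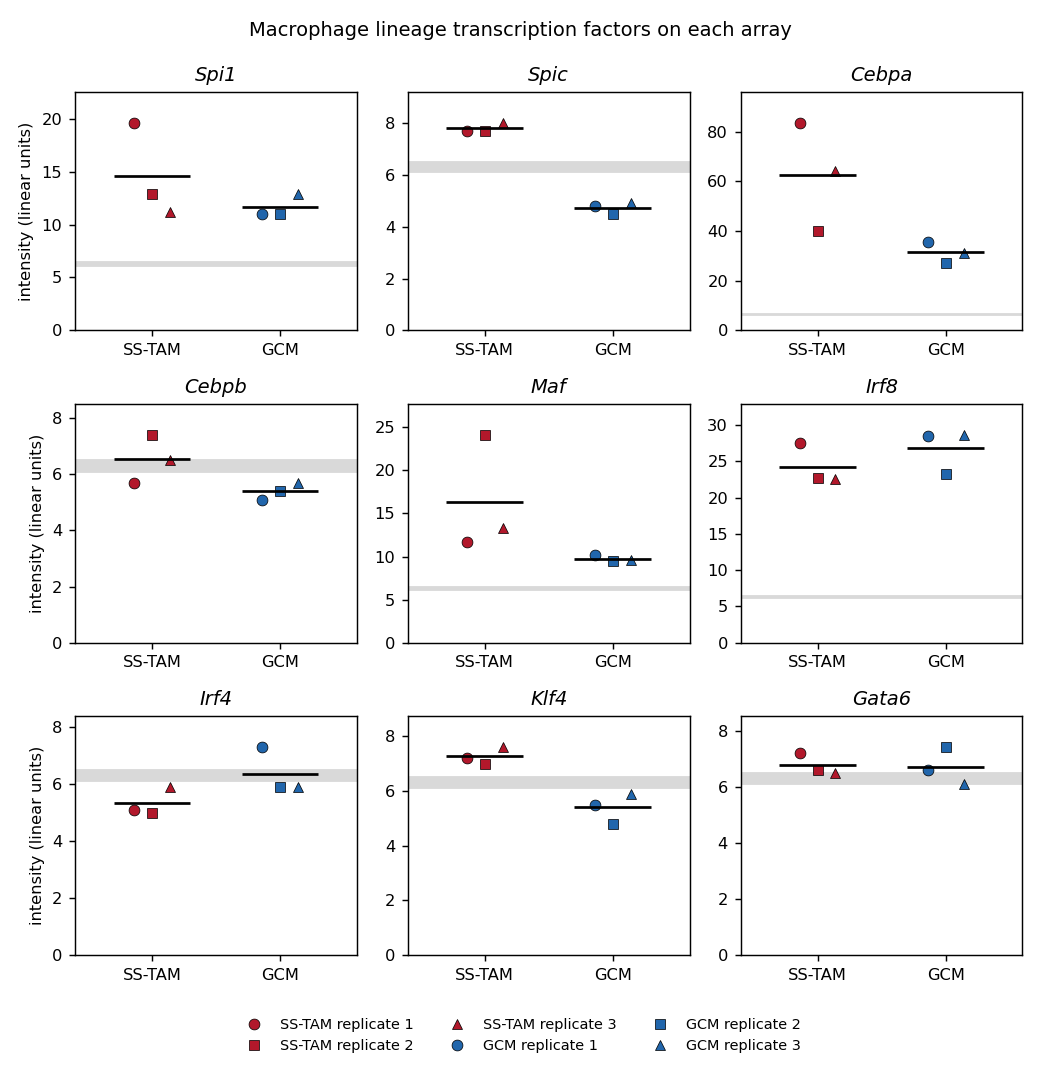
Intensity in linear units (axes start at 0) of each of the 9 factors on 3 SS-TAM arrays (red) and 3 GCM arrays (blue); each symbol is 1 array, each black line is a group mean, and the grey band spans the array medians (6.1 to 6.5). SS-TAM arrays lie above GCM arrays for Spic, Cebpa, Maf and Klf4 on this deposited scale, whereas all 9 factors lie lower in SS-TAMs after scaling to core macrophage markers.

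Spic encodes Spi-C, an ETS factor related to PU.1 that red pulp macrophages of the spleen need and that heme induces. Its probe set (10371662) was at 7.7, 7.7 and 8 in SS-TAMs, against 4.8, 4.5 and 4.9 in GCMs. The SS-TAM arrays were nearly alike and lay above the array medians, and the GCM arrays lay below them. Spic was 1.65-fold higher in SS-TAMs (0.72 on the log2 scale with a standard error of 0.06; adjusted p = 0.00213 from limma), and -0.98 on the log2 scale after scaling to the core macrophage markers. It was called whichever 1 array was left out, with adjusted p between 0.00995 and 0.0156. The values carry 1 decimal, which can shift a Spic value by at most 0.016 on the log2 scale. No detection calls were used here, so whether the GCM level differed from background is not known.

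Klf4 encodes a zinc finger factor of monocytes that works with STAT6 in the response of macrophages to IL-4, and that epithelium and endothelium also use. The Klf4 probe set (10513008) gave 7.2, 7 and 7.6 in SS-TAMs, against 5.5, 4.8 and 5.9 in GCMs. As with Spic, the groups did not overlap and only the SS-TAM arrays exceeded their medians. The difference was 1.35-fold (0.43 on the log2 scale with a standard error of 0.09; adjusted p = 0.0379 from limma), and -1.26 on the log2 scale after scaling to the core macrophage markers. The call was lost whichever 1 of the 6 arrays was left out (adjusted p from 0.0624 to 0.115), with array weights (adjusted p = 0.116) and after quantile normalization (adjusted p = 0.0534). Among 12 endothelial markers only Robo4 rose on the deposited scale, at 7.2, 6.7 and 7.4 against 5.7, 5.8 and 6.1 (negative after the core scaling), and the summed level of the list was 94.4 to 96.2 in SS-TAMs and 95.3 to 111 in GCMs. Of 9 epithelial and mesothelial markers none was called (0 at an unadjusted p under 0.05), with sums of 54.6 to 56 against 52 to 55.4. Of 11 fibroblast and pericyte markers, Col1a2, Pdgfrb and Postn rose and none fell (Col1a2 and Pdgfrb turned negative after the core scaling). The list summed to 287 to 551 in SS-TAMs and 207 to 243 in GCMs. With 1 array left out in turn, 0 to 3 of these 11 markers and 0 to 1 of the 12 endothelial markers were called higher, not always the same genes. In these fits Col1a2 kept its call only without SS-TAM replicate 1 or 3. Pdgfrb kept it only without SS-TAM replicate 2 and Postn only without GCM replicate 1. The part of endothelial and stromal cells in the Klf4 difference was not tested.

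The start site regions of Spic, Klf4 and Cebpa are shown because the first 2 were the called factors and Cebpa had the largest fold of the 9. The windows run from 250 bases before to 50 after the start of each gene and come from RefSeq (GRCm38.p6). Windows were held for 6 of the 9 genes. Capitals mark matches, on either strand, to letters searched for each family: GAGGAAGT for PU.1, TTGCNNAA for C/EBP, GAAANNGAA for IRF, CCCCACCC for KLF, AGATAA for the zinc finger factors of the GATA type and TGCTGA for a short form of the MAF site. A match to the C/EBP letters can contain the MAF letters, so those searches are not exclusive.
Spic, chr10:88682974-88683273, minus strand: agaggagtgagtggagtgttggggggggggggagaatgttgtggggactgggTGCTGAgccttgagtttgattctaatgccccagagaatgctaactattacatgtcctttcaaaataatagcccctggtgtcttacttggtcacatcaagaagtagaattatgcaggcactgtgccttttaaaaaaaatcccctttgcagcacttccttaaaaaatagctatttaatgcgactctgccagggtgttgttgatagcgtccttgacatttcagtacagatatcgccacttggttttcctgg
Klf4, chr4:55532426-55532725, minus strand: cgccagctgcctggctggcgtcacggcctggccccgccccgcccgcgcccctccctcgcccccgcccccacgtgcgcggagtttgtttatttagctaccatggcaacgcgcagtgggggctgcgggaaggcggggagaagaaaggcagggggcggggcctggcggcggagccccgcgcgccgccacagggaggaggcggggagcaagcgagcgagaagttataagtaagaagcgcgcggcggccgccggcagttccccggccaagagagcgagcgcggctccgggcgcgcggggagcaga
Cebpa, chr7:35119043-35119342, plus strand: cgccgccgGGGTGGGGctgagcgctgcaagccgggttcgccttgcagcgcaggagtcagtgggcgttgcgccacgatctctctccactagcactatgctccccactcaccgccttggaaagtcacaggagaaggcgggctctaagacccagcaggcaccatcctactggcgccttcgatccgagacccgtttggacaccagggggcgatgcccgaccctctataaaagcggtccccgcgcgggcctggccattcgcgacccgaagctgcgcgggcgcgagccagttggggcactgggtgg
The Spic window held 1 match, to the MAF letters, which starts 198 bases before the start site and which 19.5% of 32851 windows hold. The Cebpa window held 1 match to the KLF letters, starting 242 bases before the start site, against 9.99% of all windows. Klf4 held none of the 6, and the PU.1, C/EBP, IRF and GATA letters (in 3.20%, 10.8%, 8.56% and 11.2% of windows) were in none of the 3. The Spic window has 45% G and C bases, against 74.3% in Klf4, 67.3% in Cebpa and a median of 52.7% over all windows. A match is a description of letters and not a site of binding.

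Cebpa, whose product C/EBPα is needed to form granulocyte and monocyte progenitors and also acts in fat cells and liver, had the largest fold of the 9 and did not pass the test. Its probe set (10552140) was at 83.6, 39.9 and 64.1 in SS-TAMs, against 35.8, 27.2 and 31.3 in GCMs. All SS-TAM arrays were above all GCM arrays, but they spread over 2.10-fold among themselves, against 1.32-fold in GCMs. SS-TAMs averaged 62.5 ± 21.9 and GCMs 31.4 ± 4.30 (SD, n = 3 each), a 1.91-fold difference with a 95% interval from 1.19 to 3.07 (adjusted p = 0.0990 from limma). Cebpa passed after quantile normalization (log2 fold change 1.14, adjusted p = 0.0316) and without SS-TAM replicate 2 (1.23, adjusted p = 0.0299), and stood at -0.76 on the log2 scale after scaling to the core macrophage markers. The order of the SS-TAM arrays, replicate 1, then 3, then 2, was also that of the geometric mean of the core macrophage markers, at 86.8, 76.2 and 62.8. Their summed intensity had another order, at 3724, 2868 and 3803 in SS-TAM replicates 1 to 3. In GCM replicates 1 to 3 the geometric mean, at 23.95, 21.11 and 24.1, did not follow the order of Cebpa either. Of 5 adipocyte markers, listed after the values of Cebpa were seen, Cidec (7.5, 6.6 and 7.7 against 5.6, 5.5 and 5.8) was called higher on the deposited scale (lower after the core scaling) and none lower. Cidec lost its call when any array but SS-TAM replicate 2 was left out. The summed level of the 5 adipocyte markers was 55.1, 35.6 and 37.4 in SS-TAM replicates 1 to 3, against 43.8, 33.5 and 34.6 in GCMs. Their part in the Cebpa values was not tested.

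Cebpb encodes C/EBPβ, which inflammatory and IL-4 signals use in macrophages. The probe set (10478890) read 5.7, 7.4 and 6.5 in SS-TAMs, against 5.1, 5.4 and 5.7 in GCMs. The lowest SS-TAM array equalled the highest GCM array, and only SS-TAM replicate 2 lay above the median of its own array. The difference of 0.27 on the log2 scale had a 95% interval from 0.004 to 0.53 and an adjusted p of 0.190 from limma. Among 8 genes known for C/EBP-driven transcription in macrophages, none was called by limma (2 higher and 1 lower at an unadjusted p under 0.05). Of them the lysozyme gene Lyz2 was at 656.6, 508.2 and 597.6 in SS-TAMs, against 339.6, 388.3 and 462.7 in GCMs (adjusted p = 0.0681 from limma), and the receptor gene Csf3r at 8.7, 9.6 and 11.4 against 8.1, 7.9 and 8.1 (adjusted p = 0.153).

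Spi1, the gene of PU.1, did not pass the test. Its probe set (10473809) gave 19.6, 12.9 and 11.2 in SS-TAMs, against 11, 11 and 12.9 in GCMs. SS-TAM replicate 1 stood above the other 5 arrays, and replicates 2 and 3 fell within the range of the GCM arrays. The fold was 1.22, with a 95% interval from 0.847 to 1.76 (adjusted p = 0.433 from limma), and without SS-TAM replicate 1 the log2 fold change was 0.05 in place of 0.29. The interval leaves room for a change in either direction. Of 14 genes known for PU.1-driven promoters or enhancers, 7 rose and none fell on the deposited scale: Csf1r, Csf2ra, Fcgr1, Msr1, Adgre1, Cd68 and Tlr4, of which Csf1r and Csf2ra turned negative after the core scaling. Their median log2 fold change was 1.17, against 0.04 for all genes. After the core scaling Tlr4 kept little of its difference. The scavenger receptor gene Msr1 was at 135.8, 75.6 and 126.2 in SS-TAMs, against 8.8, 6 and 5.1 in GCMs, and Adgre1 (F4/80) at 106.4, 68.9 and 82.9 against 5.1, 4.9 and 5.1. Leaving out 1 array in turn left 4 to 6 of the 7, with Msr1, Adgre1, Cd68 and Tlr4 called each time. This list shares genes with the core macrophage markers, and Cd68 and Csf1r were used to mark the cells, so the count is not independent of those.

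Maf encodes c-Maf, which takes part in limiting the proliferation of macrophages and drives Il10. Its probe set (10581992) was at 11.7, 24.1 and 13.3 in SS-TAMs, against 10.2, 9.5 and 9.6 in GCMs. The GCM arrays were within 1.07-fold of each other and all lay below the SS-TAM arrays, of which replicate 2 was far above the others. The log2 fold change was 0.67 (standard error 0.27, adjusted p = 0.191 from limma) and 0.35 without SS-TAM replicate 2 (adjusted p = 0.0668), and -1.03 after scaling to the core macrophage markers. The fibroblast and pericyte markers given with Klf4 moved the same way between the groups (9 of 11 with a positive fold change). Within SS-TAMs they summed to 551, 287 and 300 in replicates 1 to 3, lowest on the array with the highest Maf value. The part of these cells in the Maf values was not tested. Of 6 genes linked to factors of the MAF family, 5 rose on the deposited scale and none fell: the complement genes C1qa, C1qb and C1qc, the scavenger protein gene Cd5l and the receptor gene Axl. The remaining gene, Il10, was at 4.8, 4.4 and 3.9 in SS-TAMs, against 4.2, 4.3 and 4.2 in GCMs. Il10 lay below the median of every array and was not called (adjusted p = 0.795 from limma). C1qb was at 133.2, 94.1 and 101.8 in SS-TAMs, against 19.4, 14.2 and 22.3 in GCMs, and Cd5l at 27.2, 28.9 and 31.2 against 4.7, 4.9 and 4.6. On the deposited scale all 5 were called whichever 1 array was left out, and C1qa, C1qb and C1qc are themselves among the 21 core macrophage markers. After the core scaling C1qa kept almost none of its difference, and C1qc and Axl kept little. C1qc (458.6, 354.1 and 478.3 against 119.1, 88.2 and 109) and Axl (60.9, 45.4 and 67.1 against 15.5, 12.7 and 16.4) did not overlap between the groups either. None of the 6 was highest in SS-TAM replicate 2, the array with the highest Maf value.

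Irf8, needed for monocytes and dendritic cells and also active in germinal center B cells, did not pass the test. The probe set (10576034) read 27.5, 22.7 and 22.6 in SS-TAMs, against 28.5, 23.3 and 28.6 in GCMs. The ranges overlapped, with 2 SS-TAM arrays below every GCM array. The log2 fold change was -0.14, with a 95% interval from -0.44 to 0.15 (adjusted p = 0.483 from limma). Of 7 genes linked to IRF8 in myeloid cells, the protease gene Ctsc rose on the deposited scale (185.9, 107.2 and 118.5 against 48.8, 64.6 and 59.6) and none fell, though Ctsc turned negative after the core scaling. Ctsc lost its call when SS-TAM replicate 3 or any 1 GCM array was left out. Markers of other cells that use Irf8 also moved, beside the B cell values above. Of 11 dendritic cell markers, 4 fell (Flt3, Clec9a, Ccr7 and Dpp4), with sums of 96.2 to 120 in SS-TAMs against 163 to 248 in GCMs. Ccr7, at 21.8, 43.1 and 35.6 against 72.4, 113.8 and 137.9, was the largest term of the GCM sums. Fold changes were positive for 4 of the 11, among them Zbtb46 (6.3, 7.3 and 8 against 6.2, 5.7 and 6.2). Leaving out 1 array in turn left 0 to 2 of the 11 called lower. T cell markers fell as well (sums of 204 to 248 in SS-TAMs against 1219 to 1635 in GCMs). Which cells gave the Ccr7 and Dpp4 values was not tested. The part of dendritic and B cells in the Irf8 values was not tested.

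Irf4, which plasma cells and activated lymphocytes use, and macrophages under IL-4, was among the dim genes. Its probe set (10404389) was at 5.1, 5 and 5.9 in SS-TAMs, against 7.3, 5.9 and 5.9 in GCMs. Only GCM replicate 1 was above the median of its array, and the groups met at 5.9. The log2 fold change was -0.25 (standard error 0.11, adjusted p = 0.233 from limma), and -0.15 without GCM replicate 1. The same array had the highest level of Jchain, a gene of plasma cells, at 6.9, 9.5 and 8.9 in SS-TAMs against 171.9, 58.1 and 39.3 in GCMs. The 7 plasma cell markers summed to 60.9 to 65.4 in SS-TAMs and to 242, 112 and 90.9 in GCM replicates 1 to 3. Jchain was called lower and Xbp1 higher in SS-TAMs (Xbp1 turned negative after the core scaling). The Jchain call was lost without GCM replicate 2 or any 1 SS-TAM array. Of the fits without 1 array, only that without SS-TAM replicate 3 kept the Xbp1 call. The B cell markers summed to 750, 269 and 271 in GCM replicates 1 to 3. The part of plasma and B cells in the Irf4 values was not tested. Of 8 genes of the IL-4 response linked to IRF4 and KLF4, Mrc1 and Mgl2 rose on the deposited scale and none fell, though Mgl2 turned negative after the core scaling (2 higher and 3 lower at an unadjusted p under 0.05), and the median over the list was -0.05 on the log2 scale. Mgl2, a lectin gene, was at 6.2, 7.5 and 6 in SS-TAMs, against 4.2, 4.5 and 4.1 in GCMs, and lost its call whichever GCM array was left out. The mannose receptor gene Mrc1 was at 336, 218.6 and 198.3, against 6.9, 5.8 and 6.5, and was called whichever 1 array was left out.

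Gata6, the factor of large peritoneal macrophages, showed no measurable difference at this precision. The probe set (10453857) gave 7.2, 6.6 and 6.5 in SS-TAMs, against 6.6, 7.4 and 6.1 in GCMs. All values were close to the array medians, and 2 SS-TAM and 2 GCM arrays exceeded them. The log2 fold change of 0.02 had a 95% interval from -0.20 to 0.24 (adjusted p = 0.918 from limma), and it turned to -0.04 after median centring and to -0.06 after quantile normalization. Of 10 genes linked to GATA6 in peritoneal macrophages, Ltbp1 rose on the deposited scale (9, 10.3 and 9.9 against 7, 6.4 and 7; negative after the core scaling) and none fell. Ltbp1 lost its call whichever GCM array was left out. Of the mesothelial markers, Wt1 was at 7, 7.9 and 9 against 9.3, 7.7 and 8.6 and Upk3b at 6.6, 6.7 and 6.7 against 6.9, 6.7 and 6.7.

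**Figure D2:**
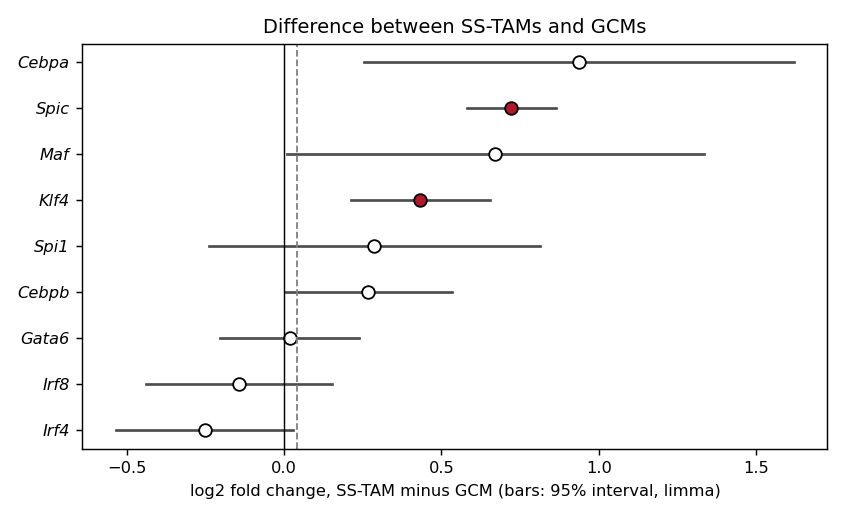
Points give the log2 difference between SS-TAM and GCM arrays (SS-TAM minus GCM) for the 9 factors on the deposited scale, and bars the 95% intervals from limma (n = 3 arrays a group); filled points have an adjusted p under 0.05 and the dashed line is the median of all genes (0.04). Spic and Klf4 are filled and have the 2 called differences, Cebpa has the largest fold with an interval from 0.26 to 1.62, and all 9 points lie below 0 after scaling to core macrophage markers.

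The 9 factors changed less than the mean of the core macrophage markers of the same arrays. Subtracting the mean log2 level of the 21 markers from each array left every SS-TAM array below every GCM array for 9 of 9 factors, as it did for 98.7% of all genes. For Spi1 the remainder was -2.15, -2.28 and -2.77 on the log2 scale in SS-TAMs, against -1.12, -0.94 and -0.90 in GCMs. For Cebpa it was -0.05, -0.66 and -0.25, against 0.58, 0.37 and 0.38. Maf came closest to touching, with SS-TAM replicate 2 at -1.38 and the lowest GCM array at -1.33. This scaling moved the median of all genes to -1.66, and 19729 genes were then called lower and 80 higher, so a negative value there is shared with nearly all genes. Relative to that median, Cebpa stood at 0.90, Spic at 0.68, Maf at 0.63, Klf4 at 0.39, Spi1 at 0.25, Cebpb at 0.23, Gata6 at -0.02, Irf8 at -0.18 and Irf4 at -0.29. The scaling shifts every fold change by the same amount, so these distances are those of the deposited scale and add nothing to it.

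**Figure D3:**
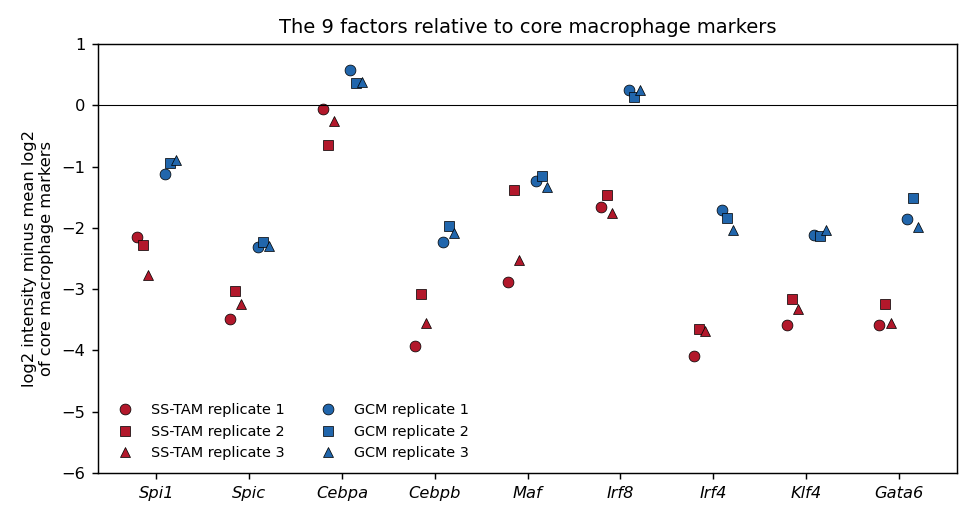
Log2 intensity of each factor minus the mean log2 intensity of 21 core macrophage markers on the same array; symbols are single arrays, 3 SS-TAM (red) and 3 GCM (blue). SS-TAM symbols lie below GCM symbols for all 9 factors, as for 98.7% of all genes, which is the reverse of the deposited scale for the 7 factors with a positive fold change there.

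Among relatives of the 9 factors in the ETS, C/EBP, MAF, IRF, KLF and GATA families, 4 of 49 fell in SS-TAMs and none rose, against 4.74% and 5.16% of all genes. All 4 were ETS factors, out of 13 measured: Ets1, which T, B and natural killer cells use, Fli1, Elk4 and Elf1. Ets1 was at 21.2, 26.7 and 21.5 in SS-TAMs, against 54.4, 51.8 and 53.8 in GCMs (-1.21 on the log2 scale with a standard error of 0.10; adjusted p = 0.00249 from limma). Its groups were well apart and it was called whichever 1 array was left out, whereas Fli1, Elk4 and Elf1 each lost the call when any of 5 of the 6 arrays was left out. Fli1 was at 45.3, 33.8 and 34.1 in SS-TAMs, against 82.9, 56.3 and 101.6 in GCMs. T cell markers, which fell in 9 of 17 cases, moved with these ETS factors. Among them Cd3g (CD3γ) was at 6.5, 6.2 and 6.3 against 276.2, 411.1 and 376.5. Their part in the ETS values was not tested.

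In the other families no gene was called by limma. At an unadjusted p under 0.05, 1 of 4 C/EBP factors was higher and none lower, 2 of 5 MAF factors higher and none lower, 1 of 6 IRF factors higher and 1 lower, 1 of 16 KLF factors higher and none lower, and 1 of 5 GATA factors higher and 1 lower. Among IRF relatives Irf2 was at 17.2, 23.6 and 19.8 in SS-TAMs against 44.3, 25.9 and 35.5 in GCMs (adjusted p = 0.0863 from limma) and Irf3 at 12.4, 9.5 and 12 against 13.2, 15.2 and 12.4. Ddit3, a C/EBP relative of the stress response, was at 14.4, 13.9 and 22.2 against 13.2, 8.8 and 11.6, and Cebpg at 15.5, 13.7 and 25.3 against 32.8, 24.2 and 24.2. Groups overlapped or met for Klf6 (25.1, 18.1 and 16.8 against 20.3, 19.7 and 22.4), Klf14 (21.4, 29.1 and 28.5 against 21.7, 21.7 and 21.2), Gata2 (10.6, 9.6 and 11 against 9.5, 9.1 and 9.6) and Gata4 (13.2, 12.8 and 12.9 against 12.8, 14.2 and 14.7).

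Of 23 other regulators of macrophages and their precursors, 3 rose on the deposited scale and none fell: Pparg, the lipid-sensing receptor gene, Zeb2, a repressor that keeps macrophage identity in tissues, and Nr1h3, the gene of the sterol receptor LXRα, though Zeb2 and Nr1h3 turned negative after the core scaling. Zeb2 was at 40.4, 33.4 and 34.1 in SS-TAMs, against 16.1, 14.2 and 13.4 in GCMs (1.30 on the log2 scale with a standard error of 0.11; adjusted p = 0.00238 from limma). Pparg was at 17.8, 19.4 and 36.6 against 6, 5.2 and 5.9, and Nr1h3 at 9.7, 8.1 and 11.8 against 5.8, 4.3 and 5.2. After the core scaling Pparg kept little of its difference. Zeb2 was called whichever 1 array was left out, Pparg lost the call without GCM replicate 2 or 3, and Nr1h3 when any array but SS-TAM replicate 2 was left out. Among 6 genes of the heme-handling program linked to Spi-C, the adhesion gene Vcam1, the iron exporter gene Slc40a1 and the heme oxygenase gene Hmox1 rose on the deposited scale and none fell (3 higher and 1 lower at an unadjusted p under 0.05). The lower one, Treml4, was at 7.1, 6.9 and 7.1 in SS-TAMs, against 7.4, 9.3 and 9.6 in GCMs (adjusted p = 0.147 from limma). Slc40a1 was at 36.9, 45.7 and 40.8 in SS-TAMs, against 6.1, 6.7 and 7.2 in GCMs. Vcam1 was at 382.7, 408.1 and 545.3 against 116.1, 125.4 and 167.3, and Hmox1 at 76.7, 30.4 and 45.3 against 11.8, 7.7 and 8.3. Vcam1 kept almost none of its difference after the core scaling. Hmox1 lost its call when GCM replicate 2, GCM replicate 3 or SS-TAM replicate 3 was left out. Of 5 erythroid markers none was called (1 higher at an unadjusted p under 0.05), with sums of 29.2 to 32.7 against 28.2 to 29.4.

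**Figure D4:**
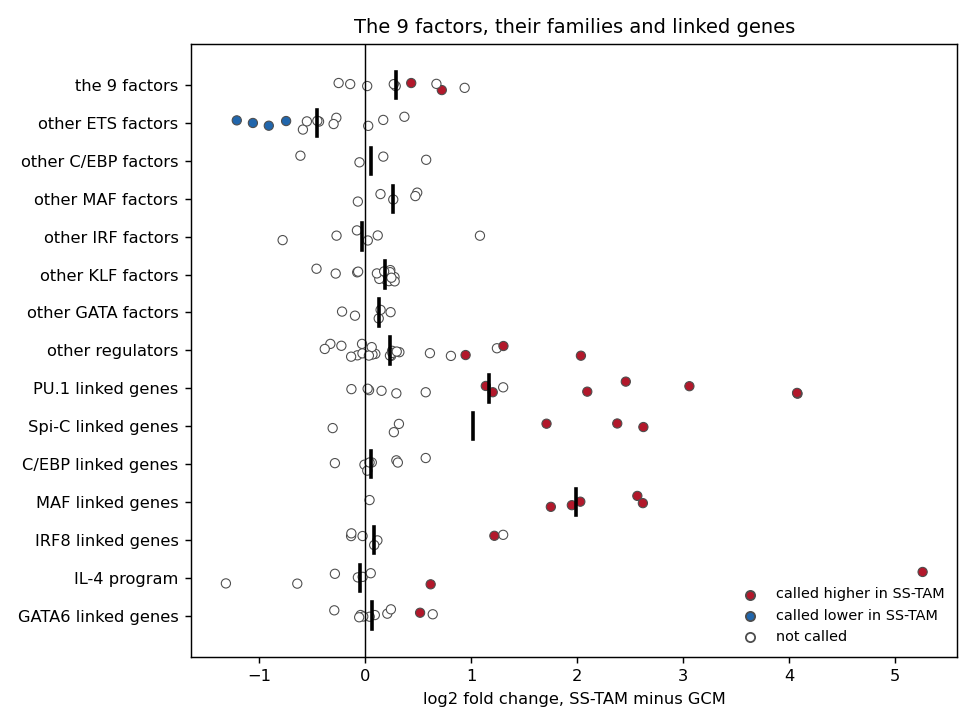
Log2 fold change (SS-TAM minus GCM, deposited scale) for the 9 factors, their families, other regulators and 7 lists of linked genes; each point is 1 gene (red called higher, blue called lower, white not called) and each black tick is a list's median. The 9 factors lie between -0.25 and 0.94, and the 4 blue points are ETS factors, while scaling to the core markers takes all points down by the same amount and the median over all genes to -1.66.

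The genes whose pattern over the 6 arrays was most like that of Spic, by Pearson's r of log2 intensity among 9969 genes above the median level, were Ftcd (r = 0.999), the prostaglandin synthase gene Hpgds (r = 0.998) and the galectin-3 gene Lgals3 (r = 0.997). Ftcd was at 10.2, 10.3 and 10.7 in SS-TAMs, against 6.8, 6.6 and 7 in GCMs, and Lgals3 at 159.3, 141.3 and 167.2 against 30, 28.1 and 31.7. For Klf4 they were Gpr137b (r = 0.997), Tmco3 (r = 0.993) and Golt1b (r = 0.991), with Gpr137b at 36.1, 32.4 and 41.4 against 13.1, 7.9 and 15.2. With only 6 arrays in 2 groups such values are common: 416 genes exceeded an r of 0.95 with Spic and 144 with Klf4.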

How the data were processed

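RNA of laser-captured cells was amplified and hybridized to Affymetrix Mouse Gene 1.0 arrays, 3 SS-TAM and 3 GCM. Intensities as deposited by the authors are linear and carry 1 decimal, from 2.4 to 2544; their processing notes name RMA and limma, while tool versions and genome build were not given in any source used here. The fixed design assumed log2 values, so log2 of the intensities was taken first. Of 28944 probe sets, 21789 name 1 gene in the platform annotation (21698 matched to RefSeq by gene ID), 1621 several and 5534 are unnamed here. The brightest probe set stood for each of 19938 genes. Groups came from the sample titles, and lmFit and eBayes of limma 3.58.1 (R 4.3.3) compared them, two-sided and with no covariate, with Benjamini-Hochberg adjustment over all genes. On simulated arrays of this comparison with 19938 genes, the fit recovered 81 of 100 genes with a true log2 change of 1, 97 of 100 with one of 2, and made 8 false calls. Noise was drawn for each gene independently there. No true change under 1 was simulated, so recovery of differences as small as those of the 9 factors is not known. The number of arrays limits the precision.

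The factors and gene lists were chosen with earlier results of these data known. Named are all 9 factors, up to 4 called genes of each list with the largest change or its 2 brightest, and the 3 genes most like each called factor. Genes named outside this rule (such as Csf1r, Csf2ra, Tlr4, C1qa, Treml4 and those of the closing section) complete small counts or were chosen after their values were seen. Alternatives covered scaling, dim genes, probe set choice, variance model, array weights, a replicate block, a larger log2 offset, a 2-fold criterion and each array left out. Protein sequences were not used here. The replicates are separate mice.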

Additional observations from a re-analysis of the deposited data

How the results depend on the processing

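Scaling arrays to the core macrophage markers turned Spi1 to -1.41, Spic to -0.98, Cebpa to -0.76, Cebpb to -1.43, Maf to -1.03, Klf4 to -1.26 and Gata6 to -1.68 on the log2 scale and took Irf8 to -1.84 and Irf4 to -1.95, all 9 called lower. It left 0 factors, 80 of all genes and 9 list genes higher, and 9 factors, 19729 genes and 109 list genes lower, by construction of a common shift. Gata6 turned to -0.044 after median centring and -0.0565 after quantile normalization. Klf4 was no longer called with array weights (0.42, 1 factor higher), after quantile normalization (0.37) or with the replicate block (0.43), and Cebpa was called after quantile normalization (1.14) and with the block (0.94), so the 2 higher factors in both settings were Spic and Cebpa. At 2-fold or more, neither Spic (0.72) nor Klf4 (0.43) was called, which left 0 factors, 279 genes higher and 470 lower, and 2 list genes lower. Array weights and log2 of the value plus 16 each left 2 list genes lower, against 4. Median centring gave 746 genes higher and 1169 lower, against 1028 and 946.

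Equal replicate numbers mark different mice, and same-numbered arrays deviated together with correlations of only 0.019 to 0.090, although 6 of 6 arrays correlated best with their own number. With the replicate block 611 genes were higher and 708 lower; the cause was not tested.

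Without 1 array in turn, log2 fold changes ranged from 0.05 to 0.46 for Spi1, 0.69 to 0.75 for Spic, 0.70 to 1.23 for Cebpa, 0.17 to 0.36 for Cebpb, 0.35 to 0.88 for Maf, -0.24 to -0.09 for Irf8, -0.33 to -0.15 for Irf4, 0.35 to 0.50 for Klf4 and -0.048 to 0.091 for Gata6, which was reversed without GCM replicate 3 (-0.048) and SS-TAM replicate 1 (-0.028). Counts ranged from 1 to 2 higher and 0 to 0 lower factors, 271 to 1159 higher and 399 to 796 lower genes, and 13 to 25 higher and 1 to 3 lower genes of the family, regulator and target lists (22 and 4 with all arrays). Dim levels of Spic, Klf4, Cebpb, Irf4 and Gata6, close to or below the array medians, limit what their folds can show.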

Other observations

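The highest SS-TAM array differed among the factors and their relatives. SS-TAM replicate 1 was highest for Spi1, Cebpa, Irf8 and Gata6, and genes singled out after their values were seen were highest there too: Siglec1, the gene of CD169, at 71.2, 16 and 12.7 in SS-TAMs against 9.5, 6.9 and 8.6 in GCMs, the Fc receptor gene Fcgr1 at 60.9, 21.9 and 18.3 against 5.7, 4.7 and 5.5, and the interferon regulatory factor gene Irf7 at 19, 13.8 and 7.4 against 6.2, 5.9 and 5.6 (adjusted p = 0.109 from limma). Of 11 fibroblast and pericyte markers, 9 were highest on the same array among SS-TAMs. The adipocyte gene Adipoq was at 28.7, 9.9 and 9.1 in SS-TAMs and 17.9, 8.3 and 9.1 in GCMs.

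SS-TAM replicate 2 was highest for Maf and for 4 of 5 other MAF factors: Mafa (9.7, 13 and 11.8 against 8, 8.2 and 8.2), Mafk (9.7, 12.1 and 11.4 against 8.5, 7.2 and 8.2), Mafg and Maff. Mafa and Mafk, with arrays that did not overlap between the groups, lay just outside the threshold (adjusted p = 0.0506 and 0.0512 from limma).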
